A study of Mus musculus with 4 samples.

Results

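The NRF2 pathway and heme oxygenase were followed through 10 mouse genes, namely Nfe2l2, Keap1, Hmox1, Nqo1, Gclc, Gclm, Srxn1, Txnrd1, Slc7a11 and Prdx1. They were chosen by name as rows of the count files, out of 55401 genes in all, and each matched 1 row. The RNA came from the kidney and the heart of C57BL/6 mice that had undergone cecal ligation puncture (CLP), an operation that causes sepsis by letting gut bacteria leak from the ligated cecum. For the kidney, male mice aged 8 weeks received melatonin (MLT) in drinking water at 25 μg/ml for 14 days before the operation (the CLP + MLT group) or underwent the operation without it (the CLP group), and kidneys were taken 24 h after it. The hearts carry the same group names, but the study's methods describe neither their dose nor their time. The titles of both melatonin libraries read MLT4, a number that is not explained, and the dose given for the kidney is that of the study's CLP + MLT group. Each of the 4 groups had 1 library and no replicate, and the number of mice behind a library is not stated, so the spread between mice is unknown for every difference below. None of the 4 libraries came from mice without CLP, so no level below can be set against that state.

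NRF2, the product of Nfe2l2, is a transcription factor that the adaptor KEAP1 holds in the cytoplasm and hands to a ubiquitin ligase for degradation. Oxidants and electrophiles modify KEAP1, after which NRF2 accumulates, pairs with small MAF proteins and binds antioxidant response elements in the genes of its targets. Those targets make glutathione, reduce thioredoxin and peroxiredoxins, detoxify quinones and degrade heme. Hmox1 is also repressed by the heme sensor BACH1, and in the kidney it is a well-known marker of tubular stress.

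Between 15883057 and 22927905 reads were counted on genes per library. Reads matching more than 1 place in the genome were not counted and made up 23.6% of the CLP kidney library, 32.6% of the CLP + MLT kidney library, 38.6% of the CLP heart library and 37.0% of the CLP + MLT heart library. Mitochondrial genes took 14.8% and 24.2% of the counted reads in the CLP and CLP + MLT kidney and 31.6% and 36.0% in the heart, and their part in the ratios below was not tested. Levels below are in CPM, normalised counts per 1000000 reads, scaled within each organ by the TMM method, which assumes that most genes do not differ. The 8 cardiomyocyte markers summed to 31365 CPM in the CLP heart and 10.8 in the CLP kidney, and the 7 proximal tubule markers to 351 and 21326, so both organs carried their labelled tissue. The log2 ratio is that of CLP + MLT over CLP, and its interval is a 95% exact Clopper-Pearson interval that covers counting error only. A gene was taken as past the fold when the libraries differed at least 1.5-fold.

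The promoters of 4 of the genes are shown because they set the letters ahead of genes with lower levels in the CLP + MLT kidney (Srxn1, Prdx1 and Nqo1) beside those of one that hardly differed (Gclm). Prdx1 lay inside the 1.5-fold limit, and the letters of Txnrd1, which was lower past the fold, are not shown. RefSeq promoter windows (build GRCm38.p6, from 250 bases ahead of the start) were found for 8 of the 10 genes, and Hmox1 and Gclc had none. The core of the antioxidant response element was searched on both strands as TGACNNNGC and TGAGNNNGC, where N is any base. The forms differ in their base before NNN, so no match counts as both, though matches may lie across each other. Of the 8 genes, 6 held at least 1 form, against 30.8% of 27025 genes with a window. Keap1 and Nqo1 held none inside their windows. Bases farther ahead were not searched, so elements there would be missed. The lines give the bases ahead of the annotated start, 5′ to 3′ on the strand of the gene, with matches in capitals. They cover chr2:152105274-152105515 for Srxn1 (plus strand), chr4:116685349-116685543 for Prdx1 (plus strand), chr3:122245307-122245556 for Gclm (plus strand) and chr8:107403207-107403455 for Nqo1 (minus strand).
Srxn1: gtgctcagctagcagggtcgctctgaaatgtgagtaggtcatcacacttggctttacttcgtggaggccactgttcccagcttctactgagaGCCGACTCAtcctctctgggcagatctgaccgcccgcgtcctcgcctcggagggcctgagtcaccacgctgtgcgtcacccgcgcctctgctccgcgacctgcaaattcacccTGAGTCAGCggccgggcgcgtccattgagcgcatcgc
Prdx1: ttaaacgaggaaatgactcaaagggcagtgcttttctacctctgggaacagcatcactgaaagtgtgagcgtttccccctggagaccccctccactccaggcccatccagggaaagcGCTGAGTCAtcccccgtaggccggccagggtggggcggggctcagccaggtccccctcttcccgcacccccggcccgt
Gclm: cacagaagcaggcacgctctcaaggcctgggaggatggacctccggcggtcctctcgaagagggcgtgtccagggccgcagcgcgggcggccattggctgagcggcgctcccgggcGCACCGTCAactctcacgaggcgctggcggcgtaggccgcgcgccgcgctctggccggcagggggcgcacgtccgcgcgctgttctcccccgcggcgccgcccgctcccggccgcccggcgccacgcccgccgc
Nqo1: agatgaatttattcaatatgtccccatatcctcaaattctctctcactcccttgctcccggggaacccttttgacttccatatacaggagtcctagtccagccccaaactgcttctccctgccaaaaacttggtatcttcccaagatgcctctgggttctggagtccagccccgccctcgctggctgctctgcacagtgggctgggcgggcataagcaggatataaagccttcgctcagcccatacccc
Srxn1 held TGAGTCAGC at -45 and, on the opposite strand, TGAGTCGGC at -158, and Prdx1 held TGACTCAGC on the opposite strand at -133, counted from the RefSeq start. Each also held 1 further match past the start, outside the letters shown. Nfe2l2 held TGACTCCGC on its own strand at -240. On the opposite strand Gclm held TGACGGTGC at -134, Txnrd1 TGACAAAGC at -92 and Slc7a11 TGAGAAAGC at -97. The forms TGACTCAGC and TGAGTCAGC, which were singled out after these sequences were seen, occurred in the windows of 0.929% of genes. A match describes letters only, since no binding was measured.

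In kidney, 9 of the 10 genes averaged 10 or more counts and so passed the filter on low counts. Hmox1, Srxn1, Txnrd1 and Nqo1 were at least 1.5-fold lower in the CLP + MLT library and none was higher. Of all 16932 genes that passed the filter, 11.6% were lower and 11.0% higher at this fold, or 22.6% in either direction. The median log2 ratio was −0.43 over the 9 genes and 0.0029 over all genes. When libraries were scaled by total counts only, Prdx1 also came past the fold, and the share of higher genes among all past the fold went from 48.6% to 26.6% (6.79% of all genes higher and 18.7% lower). Whole-organ RNA cannot tell fewer cells of a type from less RNA per cell.

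Hmox1 (ENSMUSG00000005413.8, chromosome 8 from 75093621 to 75100589, GRCm38) encodes the inducible enzyme that opens heme into biliverdin, carbon monoxide and iron. Its level was 193 CPM in the CLP kidney and 30.7 in the CLP + MLT kidney. The CLP kidney stood 6.30-fold above the CLP + MLT kidney, a log2 ratio of −2.65 (−2.80 to −2.52). Of the 16932 genes, 79 had a lower log2 ratio, and of the 1103 genes with a mean count at least as high, Hmox1 included, 3 did. The gene for the constitutive enzyme, Hmox2, had 1764 and 921 counts and a log2 ratio of −0.27. Read per kilobase of exon inside 1 library, which needs no scaling, Hmox1 stood at 3.40 times Hmox2 (3.22 to 3.59) in the CLP kidney and at 0.65 times (0.58 to 0.73) in the CLP + MLT kidney. The order of both genes thus differed between the kidney libraries.

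The enzymes of the thioredoxin system came next. Srxn1 (ENSMUSG00000032802.8, chromosome 2 from 152105516 to 152111376) encodes sulfiredoxin, which repairs overoxidised peroxiredoxins. Its level was 137 CPM in the CLP kidney and 65.0 in the CLP + MLT kidney, a log2 ratio of −1.08 (−1.18 to −0.98). Txnrd1 (ENSMUSG00000020250.10, chromosome 10 from 82833951 to 82897712), the cytosolic thioredoxin reductase, had 3447 and 1247 counts, that is 141 and 81.0 CPM. Its log2 ratio was −0.79 (−0.89 to −0.70). Its substrate gene Txn1 had 6124 and 3896 counts and a log2 ratio of 0.02, so Txnrd1 per kilobase went from 0.083 (0.080 to 0.087) to 0.047 (0.045 to 0.051) of Txn1. Prdx1 (ENSMUSG00000028691.12, chromosome 4 from 116685544 to 116700822) encodes a peroxiredoxin that removes peroxides and was the most abundant of the genes per kilobase in both kidney libraries. It had 14607 and 6789 counts, that is 595 and 441 CPM, and its log2 ratio of −0.43 (−0.48 to −0.39) lay inside the 1.5-fold limit. Srxn1 stood at 0.249 of Prdx1 per kilobase (0.240 to 0.259) in the CLP kidney and at 0.159 (0.149 to 0.170) in the CLP + MLT kidney.

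Nqo1 (ENSMUSG00000003849.8, chromosome 8 from 107388225 to 107403206) encodes the quinone reductase that is widely used as a readout of NRF2. Its level was 120 CPM in the CLP kidney and 77.4 in the CLP + MLT kidney, from 2944 and 1192 counts. The log2 ratio was −0.63 with an interval of −0.73 to −0.53, which reached inside the 1.5-fold limit, whereas the intervals of Hmox1, Srxn1 and Txnrd1 lay wholly beyond it.

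Both subunits of glutamate-cysteine ligase, the enzyme of the first step of glutathione synthesis, stayed inside the limit. The catalytic subunit gene Gclc (ENSMUSG00000032350.9, chromosome 9 from 77754535 to 77794485) had 299.5 CPM in the CLP kidney and 380.3 in the CLP + MLT kidney. Its log2 ratio of 0.34 (0.29 to 0.39) was the only one above 0 among the 9 genes in kidney, where upper quartile scaling put Keap1 at 0.01. The modifier subunit gene Gclm (ENSMUSG00000028124.15, chromosome 3 from 122245557 to 122270732) had 322 and 304 CPM, a log2 ratio of −0.08 (−0.13 to −0.03). Gclc per kilobase accordingly stood at 1.56 times Gclm (1.51 to 1.61) in the CLP kidney and 2.09 times (2.01 to 2.17) in the CLP + MLT kidney. Slc7a11 (ENSMUSG00000027737.10, chromosome 3 from 49892526 to 50443614), the gene of the cystine importer that feeds this pathway, had 0 counts in both kidney libraries. A count of 0 allows up to 0.122 CPM for CLP and 0.195 for CLP + MLT (3 counts).

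The sensor pair differed little in kidney. Nfe2l2 (ENSMUSG00000015839.6, chromosome 2 from 75675513 to 75704641) had 91.9 CPM in the CLP kidney and 79.4 in the CLP + MLT kidney, a log2 ratio of −0.21 (−0.31 to −0.11). Keap1 (ENSMUSG00000003308.15, chromosome 9 from 21229730 to 21239361) had 54.0 and 53.5, a log2 ratio of −0.01 (−0.14 to 0.11), so no difference was detectable at this depth. Keap1 shares 510 of its 4693 exon bases with the antisense gene Gm16754, and Gclm shares 296 of 6291 with Gm17494 on the other strand and 244 with the pseudogene Gm6061. No source used here gives the strand setting of the counting, and reads over those bases are uncertain.

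**Figure D1:**
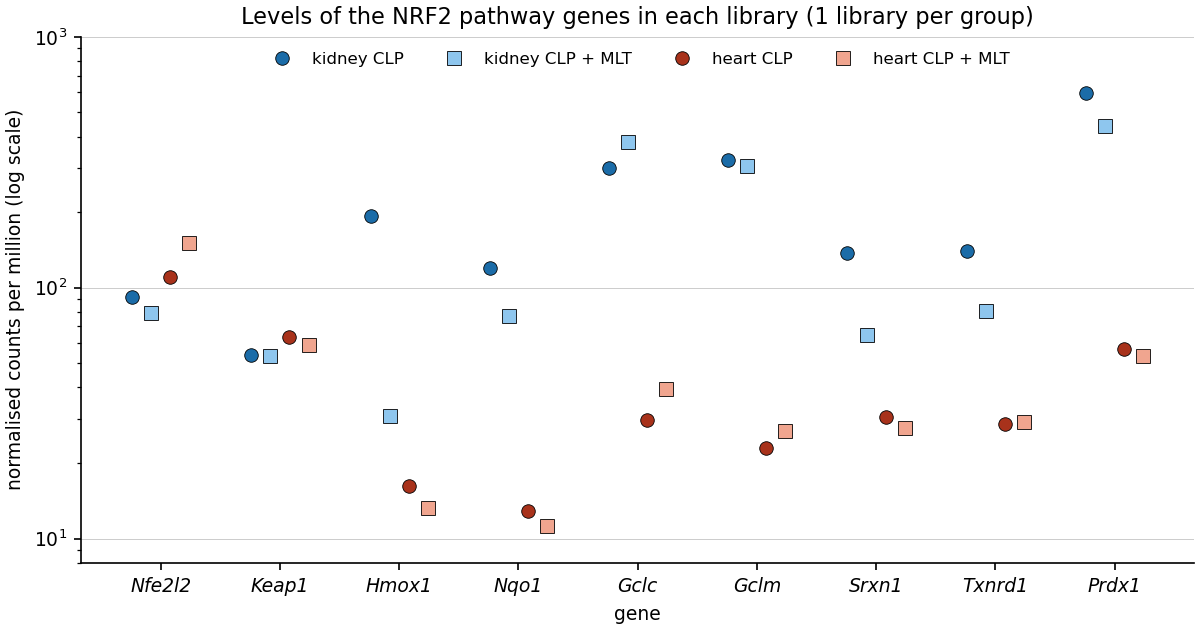
CPM (log axis) of 9 genes in the 4 libraries, with circles for CLP and squares for CLP + MLT, kidney in blue and heart in red. Slc7a11, with 0 counts in 3 libraries, is not drawn. The gap between both kidney libraries is widest for Hmox1, at 193 and 30.7. Keap1 lies at 54.0 and 53.5 in the CLP and CLP + MLT kidney and at 63.7 and 58.9 in the heart. Each organ was scaled on its own, so kidney and heart points are not on a common scale.

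In heart, none of the 9 genes that passed the filter was past the fold in either direction, against 10.9% of 15871 genes higher, 12.6% lower and 23.5% in both directions together. The median log2 ratio of the 9 genes was −0.10, and that of all genes 0.0023. The largest differences were those of Nfe2l2 and Gclc, both higher in the CLP + MLT heart. Nfe2l2 had 110 CPM in the CLP heart and 151 in the CLP + MLT heart, a log2 ratio of 0.45 (0.36 to 0.54). Gclc had 29.7 and 39.6, a log2 ratio of 0.41 (0.24 to 0.59). The intervals of Gclm (23.0 and 26.7 CPM, log2 ratio 0.22, 0.01 to 0.42) and Hmox1 (16.3 and 13.3, −0.29, −0.56 to −0.03) also left out 0. The remaining genes were close between the libraries. Keap1 had 63.7 CPM in the CLP heart and 58.9 in the CLP + MLT heart. Nqo1 had 12.8 and 11.2, and Srxn1 had 30.5 and 27.5. Txnrd1 had 28.7 and 29.0, and Prdx1 had 57.0 and 53.2. Their log2 ratios ran from −0.20 for Nqo1 to 0.02 for Txnrd1, and all 5 intervals held 0. Slc7a11 had 6 counts in the CLP heart and 0 in the CLP + MLT heart, at least 1.99-fold lower with 3 counts taken for the 0 and the 6 counts taken as exact. With counting error in both, the interval of the log2 ratio reached up to −0.23. Slc7a11 did not pass the filter.

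The regulators could also be read inside each library, without scaling. Nfe2l2 per kilobase stood at 2.14 times Keap1 (1.98 to 2.32) in the CLP heart and at 3.17 times (2.94 to 3.42) in the CLP + MLT heart. In kidney it stood at 2.1 times (1.97 to 2.25) and 1.83 times (1.68 to 2.005). Hmox1 in heart stood at 0.61 times Hmox2 (0.52 to 0.70) and 0.80 times (0.67 to 0.95). Hmox2 had 553 and 340 counts there, a log2 ratio of −0.69. Srxn1 stood at 0.578 of Prdx1 (0.518 to 0.646) and 0.559 (0.497 to 0.627), whose intervals overlapped.

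**Figure D2:**
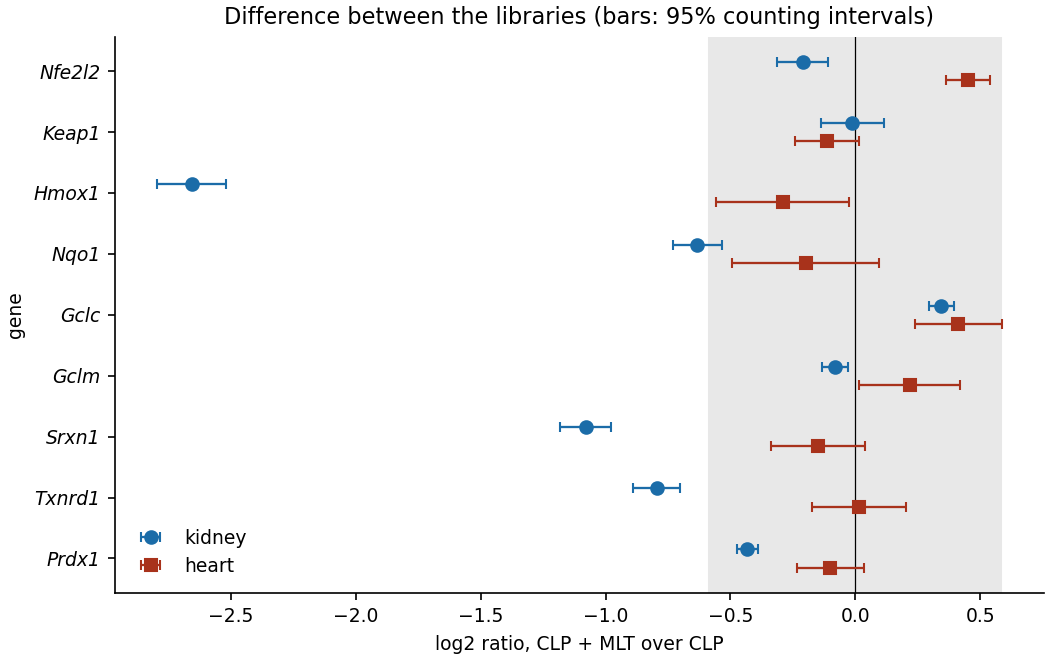
Log2 ratio of CLP + MLT over CLP for each gene in kidney (blue circles) and heart (red squares), with 95% counting intervals and the range of less than 1.5-fold in grey. Hmox1 (−2.65), Srxn1 (−1.08), Txnrd1 (−0.79) and Nqo1 (−0.63) lie to the left of the grey range in kidney, and all heart points lie within it.

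The log2 ratio in heart minus that in kidney was largest for Hmox1, at 2.36 (2.06 to 2.66), followed by Srxn1 at 0.93 (0.72 to 1.14), Txnrd1 at 0.81 (0.60 to 1.02) and Nfe2l2 at 0.66 (0.53 to 0.80). It was 0.44 for Nqo1, 0.33 for Prdx1 and 0.30 for Gclm, with intervals above 0, while the intervals for Gclc (0.07, −0.11 to 0.25) and Keap1 (−0.10, −0.28 to 0.08) held 0. With total-count scaling the differences were 0.32 for Gclc and 0.15 for Keap1. These intervals are exact conditional intervals of the counts and hold no spread between mice, so the differences between the organs were not tested.

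Between both CLP libraries, scaled together, 7 of the genes were higher in kidney. Gclm was 11.3-fold higher there, Hmox1 9.57-fold, Prdx1 8.42-fold, Gclc 8.11-fold, Nqo1 7.53-fold, Txnrd1 3.94-fold and Srxn1 3.62-fold. Nfe2l2 and Keap1 were instead 1.49-fold and 1.46-fold higher in heart, but with total-count scaling their log2 ratio of heart over kidney was only 0.14 and 0.11. Those 7 target genes thus stood higher in kidney. Slc7a11, with 0 counts in the CLP kidney and 6 in the CLP heart, was not compared.

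The order of the genes by CPM per kilobase placed Prdx1 (196) first in the CLP kidney, followed by Hmox1 (110), Gclc (79.5), Nqo1 (77.3), Gclm (51.1), Srxn1 (48.7), Nfe2l2 (24.2), Txnrd1 (19.8) and Keap1 (11.5). Among these neighbours, only Gclc and Nqo1 were not apart beyond counting error. In the CLP + MLT kidney the order was Prdx1 (145), Gclc (101), Nqo1 (49.9), Gclm (48.4), Srxn1 (23.1), Nfe2l2 (20.9), Hmox1 (17.5), Txnrd1 (11.4) and Keap1 (11.4). Hmox1 was therefore at rank 2 without melatonin and at rank 7 with it. Nqo1 and Gclm, and Txnrd1 and Keap1, were not apart there. In both heart libraries Nfe2l2 came first (29.1 in CLP and 39.7 in CLP + MLT) and Prdx1 second (18.7 and 17.5), ahead of Keap1 (13.6 and 12.5). Srxn1 (10.8 and 9.77), Hmox1 (9.28 and 7.58), Nqo1 (8.25 and 7.20) and Gclc (7.90 and 10.5) lay in the middle. Among these, Hmox1 and Nqo1 were not apart in either heart library, nor were Nqo1 and Gclc in CLP or Gclc and Srxn1 in CLP + MLT. Txnrd1 and Gclm came last of the 9 genes, between 3.66 and 4.25, and were not apart in either heart library. Exon length counts all annotated transcripts, so the level per kilobase of a gene with long alternative exons is too low.

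**Figure D3:**
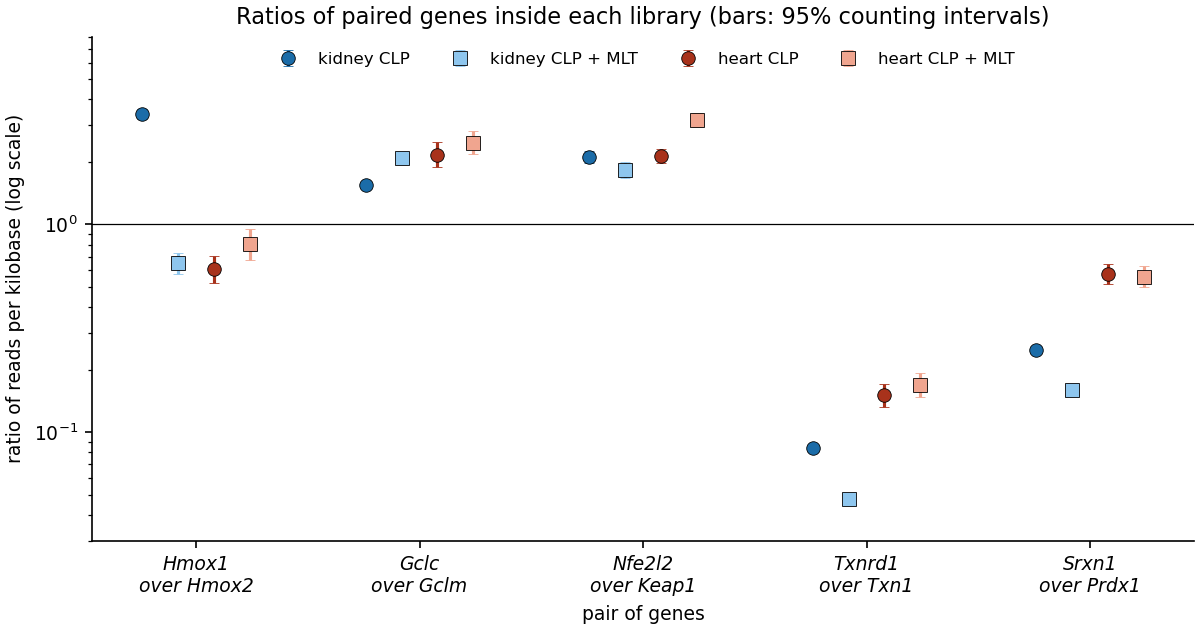
Ratio of reads per kilobase between paired genes inside each library (log axis), with 95% counting intervals. Hmox1 over Hmox2 stands at 3.40 in the CLP kidney and between 0.61 and 0.80 in the other libraries, and Nfe2l2 over Keap1 is highest in the CLP + MLT heart, at 3.17.

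The genes whose pattern over the 4 libraries was nearest to Hmox1 were found by the distance of centred log2 levels among 11796 genes whose counts averaged 100 or more. They were Slc5a2 (distance 0.52), which encodes the glucose transporter SGLT2 of the early proximal tubule, Cd14 (0.66), a co-receptor for bacterial endotoxin, BC017158 (0.82), Cbr3 (0.86), a carbonyl reductase and known NRF2 target, and Plin2 (0.89), a coat protein of lipid droplets. The median distance of all genes was 2.93. Slc5a2, also among the proximal tubule markers, had 4771 and 637 counts in kidney and 237 and 183 in heart. Cd14 had 787 and 69 in kidney and 41 and 56 in heart. Plin2 had 10595 and 1014 in kidney and 1090 and 860 in heart. Slc5a2 and BC017158 share 597 exon bases on opposite strands, which makes their counts uncertain. With 4 libraries, a short distance describes these libraries only.

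A wider circle of the pathway was read from 6 lists of other genes with 100 entries in all, of which 96 passed the filter in kidney and 95 in heart. In kidney, 6 entries (6.25%) were past the fold higher and 22 (22.9%) lower, against 11.0% and 11.6% of all genes. In heart, 8 (8.42%) were higher and 18 (18.9%) lower, against 10.9% and 12.6%. The shares over all genes are the ones to hold against each list below. Among regulators and partners of NRF2, 2 of 15 genes were past the fold in kidney, both lower (13.3%, against 11.6% of all genes), and none in heart. Sqstm1, which encodes the autophagy receptor p62 that competes for KEAP1, had 20138 and 6926 counts in kidney, a log2 ratio of −0.87. Maff, a small MAF partner, went with 178 and 47 counts, the ratio being −1.24 (−1.75 to −0.78). The list's median was −0.09 in kidney and −0.04 in heart.

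The list of other genes for detoxification was written for dependence on NRF2, which was not tested here. Of its 26 genes that passed the filter in kidney, 9 were lower and 1 was higher past the fold. These were 34.6% and 3.85%, against 11.6% and 11.0% of all genes, and the median was −0.28. Cbr3 had 346 and 58 counts (log2 ratio −1.90), the aldo-keto reductase gene Akr1b8 236 and 52 (interval −1.97 to −1.07), and Mgst1, a microsomal glutathione transferase, 9845 and 2358 (−1.39). In heart, 2 of 25 were higher (8.0%, against 10.9%) and 4 lower (16.0%, against 12.6%), with a median of 0.008. Ephx1, an epoxide hydrolase, was at 534 and 976 counts (0.88), and the transferase genes Gsta4 at 473 and 215 (−1.13) and Gstp1 at 647 and 406 (−0.66). Glutathione transferases have close copies, so their counts are uncertain.

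Enzymes of the paths that supply NADPH, which thioredoxin reductase and quinone reductase consume, had a median of −0.45 in kidney. There, 3 of 11 were lower past the fold (27.3%, against 11.6% of all genes) and none higher (against 11.0%). Pgd of the pentose phosphate pathway had 3666 and 1267 counts (−0.86) and Idh1 5056 and 1890 (−0.75). In heart the median was −0.01, with 2 of 10 higher (20.0%, against 10.9%) and 3 lower (30.0%, against 12.6%). Tkt was at 1175 and 1904 counts (0.71), while Pgls (791 and 479, −0.71), mitochondrial Idh2 (16973 and 10612, −0.67) and Taldo1 (634 and 417, −0.59) were lower.

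The glutathione list was mixed in kidney, with 3 of 13 higher (23.1%, against 11.0% of all genes), 4 lower (30.8%, against 11.6%) and a median of 0.12 that was −0.08 with total-count scaling. Slc3a2, whose product is the partner chain of the cystine importer and of other amino acid transporters, had 5064 and 1427 counts (−1.16). Glrx (1100 and 396, −0.80) and Gpx1 (25473 and 9961, −0.68) were lower too. Ggct (422 and 413, 0.64) was higher, as was Ggt1 (23095 and 22220, 0.62), which takes glutathione apart. In heart, 2 of 13 were higher (15.4%, against 10.9%) and 1 lower (7.69%, against 12.6%), with Ggt1 at 297 and 468 counts (0.67), Gpx4, which clears lipid peroxides, at 6362 and 2871 (−1.14), and a median of −0.05. Of the 13 other thioredoxin and peroxiredoxin genes, 1 was lower in kidney (7.69%, against 11.6%), Txnrd3 with 291 and 114 counts (−0.68), and the median of 0.02 was −0.18 with total-count scaling. In heart 5 were lower (38.5%, against 12.6%) and none higher (against 10.9%), with a median of −0.31, led by Prdx5 (4086 and 1707, −1.25), Prdx2 (1996 and 1152, −0.78) and the mitochondrial reductase gene Txnrd2 (584 and 364, −0.67).

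Of 18 other genes of heme handling, 2 were higher (11.1%, against 11.0% of all genes) and 3 lower (16.7%, against 11.6%) in kidney, with a median of −0.13. Alas1, the first enzyme of heme synthesis, had 9638 and 3634 counts (−0.74) and Cpox, a later enzyme of that path, 778 and 311 (−0.65). The heme exporter gene Flvcr1 (1018 and 964, 0.59) and Flvcr2 (244 and 339, 1.14) were higher. In heart, 2 of 19 were higher (10.5%, against 10.9%) and 5 lower (26.3%, against 12.6%), with a median of −0.24. Cpox went the other way there, with 70 and 173 counts (1.31). The heme carrier gene Hpx (252 and 138, −0.86), Cd163, the haemoglobin scavenger receptor gene that is also a macrophage marker (279 and 150, −0.88) and Urod (653 and 369, −0.81) were lower.

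**Figure D4:**
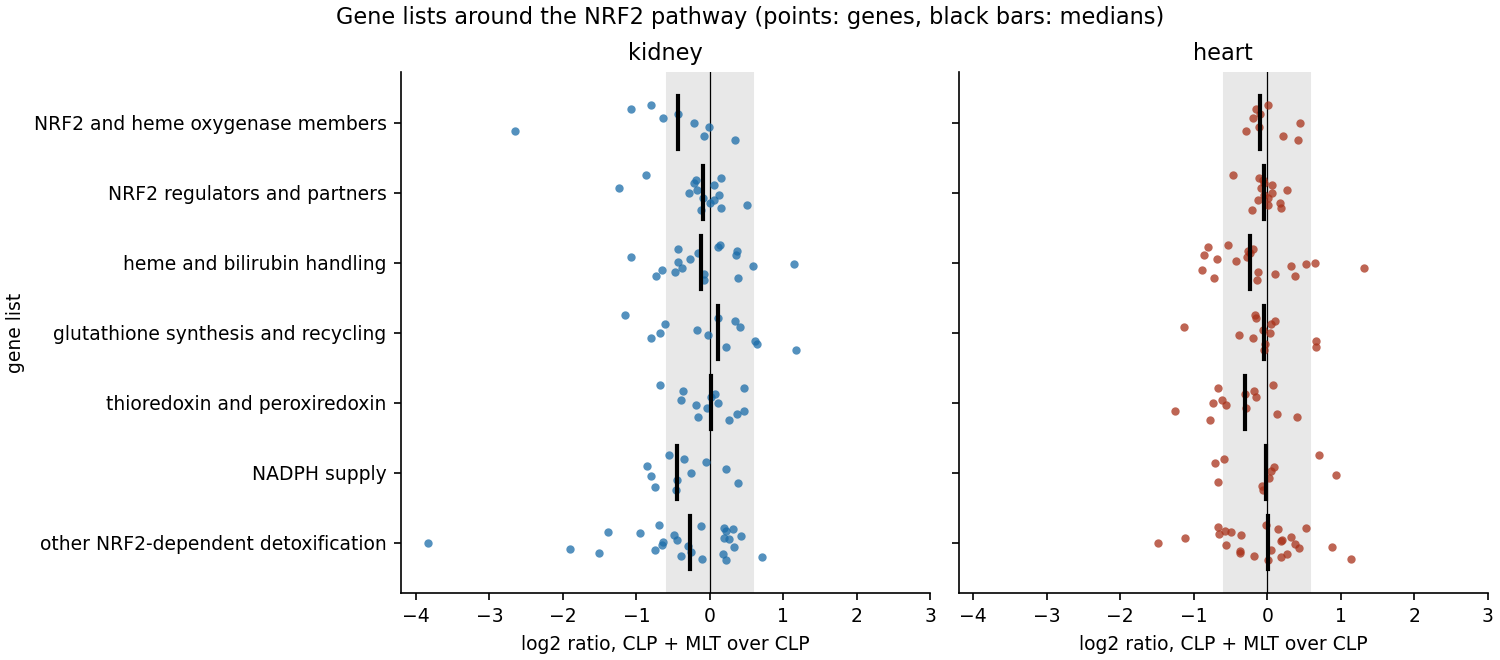
Log2 ratio of CLP + MLT over CLP for each gene of the 7 lists (points) in kidney and heart, with black bars for list medians and the range of less than 1.5-fold in grey. In kidney the medians of the members (−0.43) and of NADPH supply (−0.45) lie farthest below 0, and the point farthest to the left is Gsta1, with 31 counts and 1 count and an interval of −9.63 to −1.70. In heart the median of the thioredoxin list (−0.31) lies farthest from 0.

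Markers of cell types were read beside these ratios. In kidney, the 10 markers of macrophages, which can express Hmox1 strongly, summed to 129 CPM without melatonin and 249 with it, with 3 of 8 past the fold higher, 0 lower, and Marco at 0 in the CLP library. The largest counts in this sum were those of Csf1r (1140 and 1569) and Lyz2 (552 and 1219). The median log2 ratio of the 8 was only 0.29, from −0.49 for Cd68 to 1.81 for Lyz2. The 6 red cell markers summed to 68.6 and 82.2. The 7 neutrophil markers summed to 18.7 and 14.8, with Ly6g, Mpo and Elane at 0 in both. Of the 7 proximal tubule markers, 2 were higher and 3 lower, from −3.31 for Slc5a12 to 0.64 for Kap, and their sum went from 21326 to 32028 CPM. Most of that sum was Kap, with 448683 and 439585 counts. Of the 6 markers of later tubule segments, 3 were past the fold higher and none lower, with a median of 0.34. The 5 endothelium markers ran from −0.56 to −0.18, none past the fold, with a median of −0.43. Of 4 podocyte markers, 2 were past the fold lower and none higher, with a median of −0.46. Of the 4 fibroblast markers that passed the filter, 1 was past the fold lower and none higher, with a median of −0.35. The part of any of these cell types in the kidney ratios was not tested. In heart, 4 of the 7 proximal tubule markers were past the fold higher in the CLP + MLT library and 1 was lower, Slc5a12, with 15 and 5 counts (−1.49), while Slc5a2 was at −0.36. Of the 6 markers of later segments, 4 were past the fold higher and none lower, with Umod at 0.04. The sum of the 7 proximal tubule markers, most of it Kap (4352 and 9602 counts), was 351 CPM in the CLP heart and 747 in the CLP + MLT heart, and that of the 6 markers of later segments 75.9 and 122. Over these 13 markers, heart levels came to 2.85% of kidney levels at the median in CLP (0.676% to 36.2%) and to 5.07% in CLP + MLT (1.13% to 40.7%). The same share of the kidney level would come to 32.3% of the heart level of Gclm in CLP and 45.1% in CLP + MLT. In that order it would be 23.3% and 38.1% for Gclc, 24.1% and 32.9% for Prdx1, and 21.6% and 27.5% for Nqo1. For Hmox1 it would be 27.4% in CLP but 9.16% in CLP + MLT. It would be 11.3% and 11.1% for Txnrd1 and 10.4% and 9.36% for Srxn1. Keap1 (1.96% and 3.61%) and Nfe2l2 (1.92% and 2.09%) stood lowest. The part of kidney RNA in the heart ratios was not tested. The 8 cardiomyocyte markers summed to 31365 and 20734 CPM in heart.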

How the data were processed

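RNA of 4 libraries was sequenced after poly(A) selection. Trimming (trim-galore) and alignment to mm10 (HISAT2 2.1.0) were done by the authors, who deposited raw counts of reads per gene. HTSeq is named in the submitters' processing notes. Annotation and strand setting: not given in the sources used here. Totals that name no gene, such as reads on no feature (29.6% to 37.7% of all entries), were left out. Gene names came from GENCODE M21 (GRCm38) for 55141 of 55401 identifiers, version dropped, and 260 were unmatched.

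Counts were scaled within each organ over genes averaging 10 or more counts, by TMM in edgeR 4.0.16 (R 4.3.3). Factors were 1.07 and 0.935 for the CLP and CLP + MLT kidney and 0.981 and 1.02 for the heart. Before the log2 ratio, 0.5 counts in proportion to library size were added. Python 3.11.15 and scipy 1.17.1 gave the other values. Single libraries carry no estimate of dispersion, so the groups were compared by the study's stated fold of 1.5 alone, and p-values entered only the alternative that assumes a variation between mice. Intervals and floors hold counting error only. Reads copied by PCR stem from 1 molecule, so the intervals can be too narrow even for that error. The ratio and its interval were tested on simulated data.

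The members, lists and tests were chosen with earlier results of these data known. By rule, the text names every member, from each list and organ up to 3 genes past the fold in each direction that averaged 100 or more counts, and the 5 genes nearest in pattern to Hmox1. Partner genes set against a member (Hmox2 and Txn1), Gsta1 and the markers named singly were chosen after their values were seen. Alternatives were DESeq2 1.42.0 size factors, upper quartile, total counts, TMM over 4 libraries or without mitochondrial and haemoglobin genes, other filters, priors and folds, removal of the trend on exon length (statsmodels 0.14.6), and edgeR's exact test at assumed variations.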

Additional observations from a re-analysis of the deposited data

Results flagged for a closer look

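In 2 of the genes the libraries moved in opposite directions in the organs, with both counting intervals clear of 0. For Nfe2l2 the log2 ratio was −0.21 in kidney and 0.45 in heart, a difference of 0.66, and for Gclm it was −0.08 and 0.22, a difference of 0.30. With 1 library per group these differences between the organs were not tested. In heart, 8 of 13 tubule markers were past the fold higher in the CLP + MLT library and 1, Slc5a12, was lower, and their part in the ratio of Gclm was not tested.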

How the results depend on the processing

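The 4 kidney genes past the fold became 2 (Hmox1 and Srxn1) with a fold of at least 2, which 4.13% of all kidney genes passed higher and 4.90% lower. With edgeR's exact test at an assumed coefficient of variation between mice, and p at most 0.01, they became 2 (Hmox1 and Srxn1) at 0.2 and 1 (Hmox1) at 0.4. At those settings 618 and 90 of all 16932 kidney genes passed. In heart the count of 0 became 1 with no filter on low counts, through Slc7a11 with 6 and 0 counts. Counts of members under the other settings were within 1.5 times the reported ones. In kidney, total-count scaling put the median of all genes at −0.19 and moved each member by a like amount, to −2.85 for Hmox1 and −0.63 for Prdx1. All 29 values that left their interval did so under this scaling. They were the 9 member ratios in kidney, 4 list medians in kidney and 16 values between the organs. For a list median, the interval ran between the medians of its genes' lower and upper bounds, which is not a counting interval of the median itself. Under total-count scaling the log2 ratio of Gclc in kidney was 0.15 and that of Keap1 −0.21, so the sign of small differences rests on the scaling. The heart medians of the lists of regulators, glutathione, NADPH supply and detoxification took both signs among the alternatives, between −0.05 and 0.06. Over all alternatives, Hmox1 in kidney ranged from −2.85 to −2.63 and Nfe2l2 in heart from 0.45 to 0.51. No paired analysis was possible because each group has 1 library, and for the same reason no library could be left out.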
